A study of Danio rerio with 4 samples.

Results

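A group of 9 genes of the p53 and apoptosis pathway was followed across the study: mdm2, cdkn1a, baxa, bbc3, ccng1, gadd45aa, casp8, casp6a and phlda3. The genes were taken by name, with every probe whose RefSeq accession belongs to them. A probe was found for 8 of the 9, with 17 probes in all, among 13366 genes named on the array by the same match. No probe was matched to cdkn1a, the cyclin-dependent kinase inhibitor p21, which is not analysed here.

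The study profiled RNA of whole zebrafish (Danio rerio) embryos in 4 groups of 1 array each: 3.9 µM copper at 96 hours post fertilization (hpf), no added copper at 96 hpf, 3.9 µM copper at 24 hpf and no added copper at 24 hpf. The labels name no strain or mutation and do not say how many embryos were pooled. The deposited scanner files carry the opposite treatment in their names at both ages. Groups here follow the sample labels, and every copper difference would change sign if the file names were right. The authors' deposited table of 24 hpf lists 5 of the member probes, and its fold changes have the opposite sign to the differences given here in 5 of 5. Their sizes nearly match, as they would with the treatments exchanged. The authors' log2 values are 1.69 and 1.74 for bbc3, -2.39 for casp6a, and -1.07 and -1.25 for ccng1. The values here are -1.69 and -1.73, 2.39, and 1.07 and 1.25.

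p53 is a transcription factor that is kept scarce in unstressed cells because the ubiquitin ligase Mdm2 marks it for degradation. When DNA is damaged or a cell is otherwise stressed, p53 accumulates and induces genes that stop the cell cycle, aid repair or start apoptosis, and it also induces mdm2, which closes a feedback loop. In zebrafish embryos, as in mammals, apoptosis downstream of p53 runs through Bcl2 family proteins at the mitochondrion and then through caspases, while death receptors at the cell surface reach the caspases by way of caspase-8.

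Values are quantile-normalized log2 signals of single probes, and differences are copper minus control unless an age difference is named. For the other genes of the pathway, a difference or fold is that of the brightest detected probe. A count of probes beside it says how many detected probes had the same sign, whatever their size. With 1 array per group, a difference at a single age has no replicate check and no p-value, and the number of arrays limits the precision. The share of probes called well above background per array ranged between 76.9% and 83.6%. The median signal before normalization was 190.2 in copper and 194.4 in control at 96 hpf, and 366.4 in copper and 162.2 in control at 24 hpf. The median gene, by its brightest probe, differed by -0.05 at 96 hpf and by -0.26 at 24 hpf, and under scaling to the 75th percentile by -0.06 and -0.27, so small negative values at 24 hpf lie near the middle of all genes. The age labels fitted the markers: rhodopsin (rho) averaged 11.14 higher at 96 hpf, and the segmentation gene mespaa was well above background on both 24 hpf arrays and on neither 96 hpf array. The same stage markers differed between the 96 hpf arrays. The early genes he1.1 and hbbe3 read 7.05 and 6.39 in copper, against 11.42 and 12.56 in control (-4.38 and -6.17). The 4 later genes were all higher in copper, by 0.55 (cryaa) to 4.50 (ctrb.1), and the liver gene fabp10a by 2.29. At 24 hpf the early genes mespaa and lft1 differed by -1.07 and -1.70, and he1.1 and hbbe3 by -0.06 and -0.11. The later genes above background at that age, rho and cryaa, differed by -0.80 and -0.31. Stage and copper cannot be told apart at either age with 1 array each. Whole-embryo RNA was measured, so fewer cells of a type and less RNA per cell cannot be told apart.

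**Figure D1:**
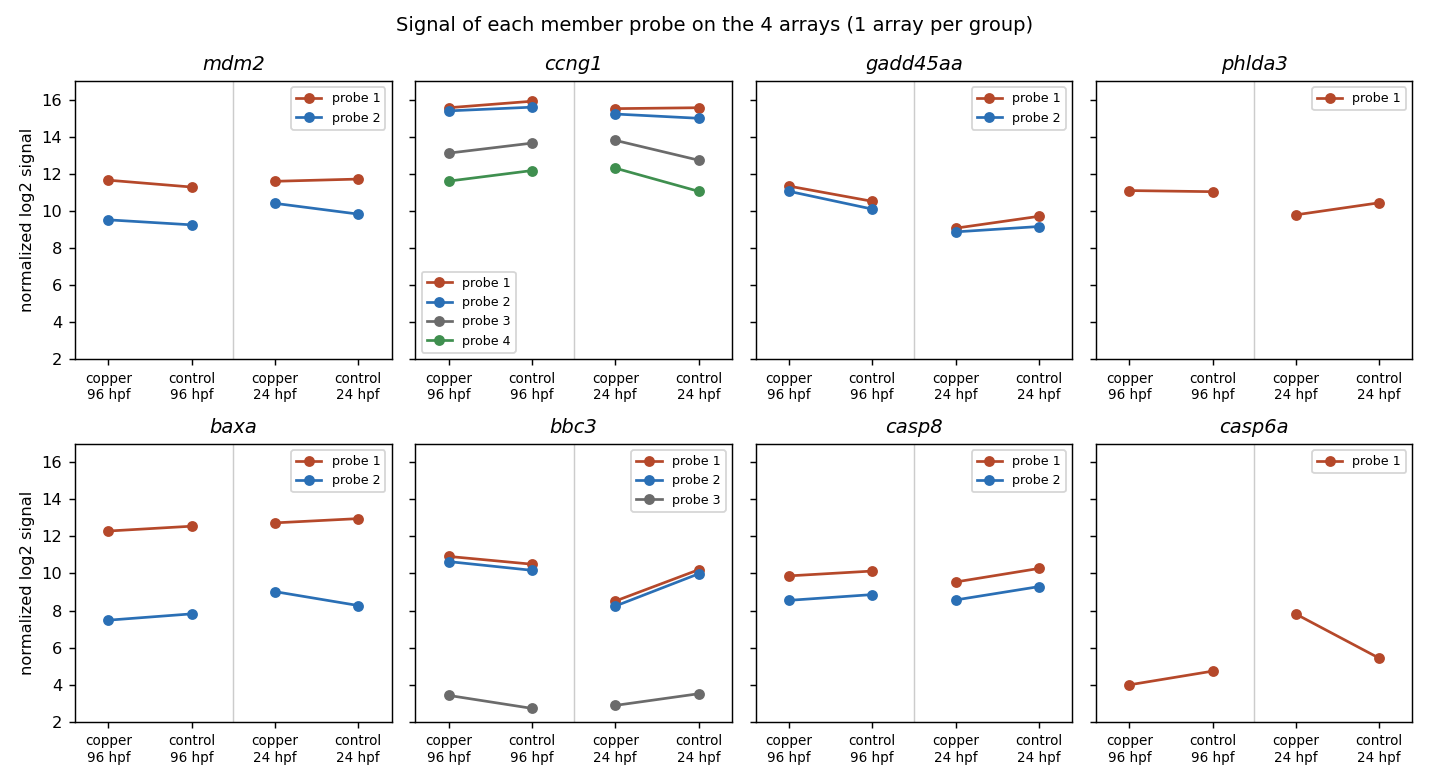
Normalized log2 signal (vertical axis) of every probe of the 8 measured genes on the 4 arrays (horizontal axis), 1 point per probe and array, with lines joining the copper and control arrays of an age. Probes are numbered from brightest to dimmest. casp6a stands at 7.81 on the copper array at 24 hpf and at or below 5.43 on the other arrays. Probes 1 and 2 of bbc3 are lowest on that same copper array, while its probe 3 is dim on every array.

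mdm2, the ubiquitin ligase that holds p53 down and is also its target gene, differed by less than 2-fold with copper on both probes at both ages. Its brighter probe read 11.65 in copper and 11.28 in control at 96 hpf, and 11.59 in copper and 11.71 in control at 24 hpf. The array values of this probe spanned less than those of most members, with the 96 hpf control lowest. Its dimmer probe read 9.51 in copper and 9.24 in control at 96 hpf, and 10.40 in copper and 9.82 in control at 24 hpf. At 96 hpf the probes gave 0.36 and 0.27, both higher in copper. At 24 hpf they disagreed, with -0.12 on the brighter and 0.58 on the dimmer probe. Of all genes, 62.5% had a lower difference than the brighter and 91.6% than the dimmer probe at 24 hpf. The shares at 96 hpf were 81.4% and 76.7%.

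Among the other regulators of p53, 11 of 13 listed genes were measured. At 96 hpf 10 of the 11 lay below 0 and none was past 2-fold. Of all genes at that age, 61.9% had a lower difference than phlda3 (0.06). The list median was -0.23 beside -0.05 for all genes, which is itself below 0. Those below 0 include tp73, dim on both arrays of that age, and tp53bp1 (-0.0), mdm4 (-0.05) and tp53inp1 (-0.07), which lie near that median. The family member tp63, a regulator of epidermis, differed by -0.56 at 96 hpf and by 0.85 at 24 hpf, each on 2 of 2 probes. Its relative tp73 differed by -0.95 at 24 hpf (2 of 2 probes), while the nucleolar protein gene ncl and the stress-induced tp53inp1 differed at that age by 0.95 (5 of 5 probes) and 0.92 (1 probe). The p53-binding protein gene tp53bp2a, named after its value was seen, was 2.11-fold lower in copper at 24 hpf. Its sign was the same on 4 of 4 probes, but did not hold on every probe under the other normalizations. The list median at 24 hpf was -0.15. Of the damage-signalling kinases, chek1 and chek2 were measured, with 1 probe each. They differed by -0.75 and -0.33 at 96 hpf and by 0.11 and -0.15 at 24 hpf. At 96 hpf the markers of cycling cells pcna, mki67 and ccnb1 were lower in copper too, by -0.66, -0.95 and -1.16, and their part in the chek1 and chek2 values was not tested.

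ccng1 encodes cyclin G1, a p53 target that in mammals brings a phosphatase to Mdm2. It was the brightest member, and its brightest probe read 15.56 in copper and 15.91 in control at 96 hpf, and 15.51 in copper and 15.56 in control at 24 hpf. At 96 hpf all 4 of its probes were lower in copper, by -0.19 to -0.57. At 24 hpf the probes split by brightness. The brighter pair differed by -0.05 and 0.23, and the dimmer pair were 2.10-fold and 2.37-fold higher in copper. Under 75th-percentile scaling the dimmer pair gave 0.83 and 1.15, so the first of them fell short of 2-fold. In the authors' deposited table the probes of the dimmer pair lie on chromosome 14 of Zv9, at 23137356 to 23137415 and 23136951 to 23137010.

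gadd45aa, a member of a family of small proteins that bind PCNA and stress kinases and are induced by growth arrest and DNA damage, was higher in copper at 96 hpf and lower in copper at 24 hpf. Its brighter probe read 11.33 in copper and 10.51 in control at 96 hpf, and 9.06 in copper and 9.70 in control at 24 hpf. The other probe read 11.05 in copper and 10.09 in control at 96 hpf, and 8.86 in copper and 9.15 in control at 24 hpf. Both probes ordered the 4 arrays alike, highest in copper at 96 hpf and lowest in copper at 24 hpf. The differences at 96 hpf were 0.82 (1.77-fold) and 0.96 (1.95-fold), both short of 2-fold. At 24 hpf they were -0.65 and -0.30, and the dimmer probe gave -0.03 under 75th-percentile scaling. At 96 hpf the gadd45aa difference had the sign of the later stage markers and of the gene's own age difference (1.54), and the part of stage was not tested.

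phlda3, a p53 target that in mammals competes with the survival kinase Akt for membrane lipids, has 1 probe. It read 11.09 in copper and 11.03 in control at 96 hpf, and 9.78 in copper and 10.43 in control at 24 hpf. It differed by 0.06 at 96 hpf and by -0.66 at 24 hpf. At 24 hpf 19.3% of genes had a lower difference.

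Of 35 other listed p53 target genes, cell cycle inhibitors and gadd45 relatives, 26 were measured. At 96 hpf 1 was higher and 1 lower by 2-fold, where 5.51% and 1.67% of all genes were. Of the 26, 16 lay above 0 (median 0.04, beside -0.05 for all genes). The genes past 2-fold were both gadd45 paralogs. gadd45ba was 2.94-fold higher, reading 11.62 in copper and 10.06 in control, and gadd45gb.1 was 2.02-fold lower. Each had the same sign on 2 of 2 probes. The sestrin sesn1, which restrains the growth kinase TOR, differed by 0.97 (3 of 3 probes), and the cyclin-dependent kinase inhibitor cdkn1ca by -0.83 (1 probe). At 24 hpf 0 were higher and 2 lower by 2-fold, where 3.09% and 5.86% of all genes were. At that age 21 of 26 lay below 0, as did at least 67.6% of all genes, the share below the brightest ccng1 probe (-0.05). The list median was -0.26, the same as that of all genes. The 2 lower by 2-fold were the sestrin sesn3 (2.12-fold) and tigarb (2.08-fold), a phosphatase that slows glycolysis, with 1 probe each. On the higher side cdkn1ba, another inhibitor of cyclin-dependent kinases, differed by 0.80 (1 probe) and ei24 by 0.50 (2 of 2 probes).

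**Figure D2:**
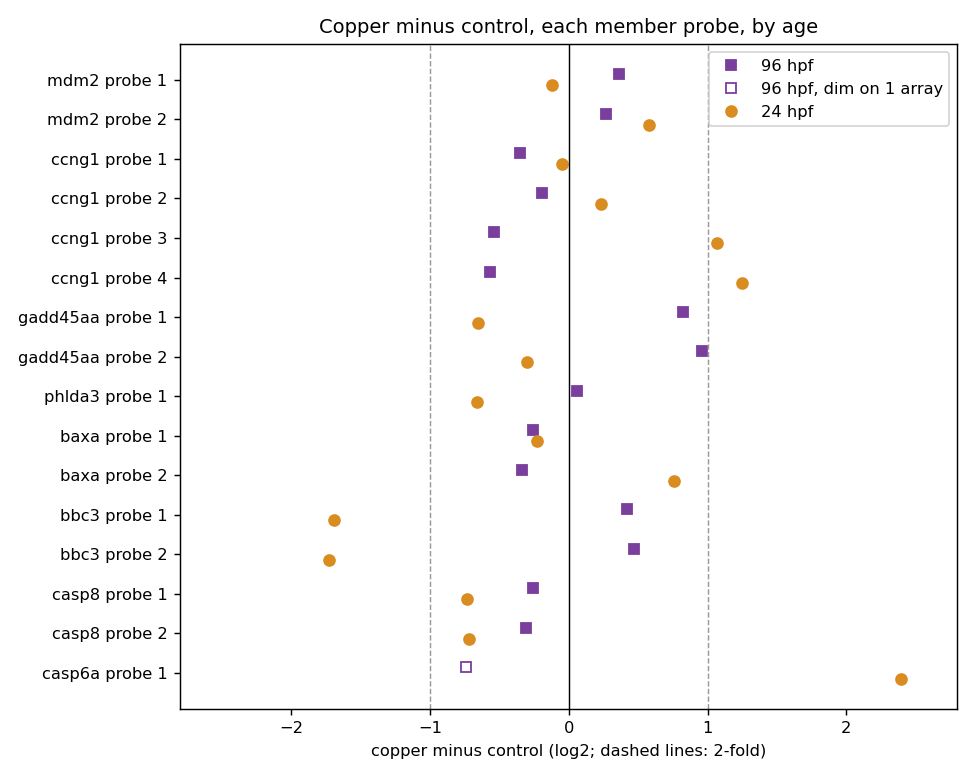
Copper minus control (log2, horizontal axis) for the 16 member probes that passed the filter on dim probes, squares for 96 hpf and circles for 24 hpf; the open square marks casp6a, dim on the copper array. No square lies past 2-fold, while circles of casp6a (2.39), ccng1 probes 3 and 4 (1.07 and 1.25) and bbc3 probes 1 and 2 (-1.69 and -1.73) do.

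bbc3 encodes Puma, a BH3-only protein that p53 induces and that sets off apoptosis by binding the protective Bcl2 proteins. It was the member with the largest lower value in copper at 24 hpf. Its brightest probe read 10.92 in copper and 10.50 in control at 96 hpf, and 8.51 in copper and 10.20 in control at 24 hpf. Its second probe read 10.64 in copper and 10.17 in control at 96 hpf, and 8.24 in copper and 9.98 in control at 24 hpf. On both, the copper array at 24 hpf was the lowest of the 4 and stood apart from the other arrays. At 24 hpf bbc3 was 3.22-fold and 3.33-fold lower in copper, -1.55 and -1.57 under 75th-percentile scaling and -1.47 and -1.50 under normexp background correction, and 0.405% of genes had a lower difference than its brightest probe. At 96 hpf the same probes gave 0.42 and 0.47. These probes are not independent: in the authors' deposited table they lie at 23098862 to 23098921 and 23098849 to 23098908 of chromosome 15 (Zv9) and share 47 bases. The third probe of bbc3 was not well above background on any of the 4 arrays.

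baxa, the pore-forming protein that opens the outer mitochondrial membrane, was bright and nearly level on its brighter probe. That probe read 12.29 in copper and 12.55 in control at 96 hpf, and 12.73 in copper and 12.96 in control at 24 hpf. Its dimmer probe had 7.48 in copper and 7.82 in control at 96 hpf, and 9.02 in copper and 8.27 in control at 24 hpf. At 96 hpf the probes gave -0.26 and -0.34. At 24 hpf they disagreed, with -0.23 on the brighter and 0.76 on the dimmer probe. The dimmer probe gave 1.12 under 75th-percentile scaling, past 2-fold, and 0.60 under normexp.

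Of the other Bcl2 family genes 14 of 24 listed were measured. At 96 hpf 9 lay above 0 with a median of 0.14, beside -0.05 for all genes. The protective mcl1b was 2.12-fold higher in copper at that age (same sign on 2 of 2 probes). The pro-apoptotic bokb differed by 0.89 (2 of 2 probes) and the protective bcl2l10 by -0.57 (2 of 2 probes). At 24 hpf 11 of the 14 lay below 0, as did at least 67.6% of all genes, with a median of -0.66 beside -0.26 for all genes. By 2-fold 3 were lower, where 5.86% of all genes were. These were bokb (2.37-fold, 2 of 2 probes), the BH3-only gene bik (2.05-fold, 2 of 2 probes) and, named after its value was seen, the mitophagy receptor gene bnip3lb (2.33-fold, 1 of 2 probes). The protective mcl1a differed by 0.30 (1 probe).

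casp8, the initiator caspase that death receptors activate, was lower in copper on both probes at both ages, by less than 2-fold. Its brighter probe read 9.87 in copper and 10.13 in control at 96 hpf, and 9.54 in copper and 10.27 in control at 24 hpf. The dimmer probe read 8.55 in copper and 8.86 in control at 96 hpf, and 8.57 in copper and 9.29 in control at 24 hpf. The control array was the higher of each pair. The differences were -0.26 and -0.31 at 96 hpf, and -0.73 and -0.72 at 24 hpf. Before normalization the 24 hpf signal of the brighter probe was 1229 in copper and 1114 in control, so at that age the sign depends on normalizing arrays of unequal brightness. The same held for 6 of the 7 members that were lower at 24 hpf by their brightest probes, as the whole copper array was brighter. bbc3 was lower in copper before normalization too (614.4 in copper and 1059 in control).

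casp6a, an executioner caspase that cleaves nuclear lamins, had the largest difference of the members at 24 hpf by quantile normalization and by 75th-percentile scaling, but not by normexp, where bbc3 was further from 0. Its single probe read 3.99 in copper and 4.73 in control at 96 hpf, and 7.81 in copper and 5.43 in control at 24 hpf. The copper array at 24 hpf stood above the other 3, and the probe was not well above background on the copper array at 96 hpf. At 24 hpf casp6a was 5.22-fold higher in copper (2.39 in log2). Scaling to the 75th percentile gave 2.86 and normexp gave 1.43, and 99.7% of genes had a lower difference. At 96 hpf it was at least 1.13-fold lower in copper, with its level on the dim array set to the dimmest value that still counted as above background there. The probe was dim on the whole, brighter on average than 14.9% of compared probes. In the authors' deposited table it spans 33099264 to 33099415 of chromosome 3 (Zv9), 152 bases, where each of the 4 other member probes listed spans 60.

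Among the other caspases and the proteins of the apoptosome and its targets, 18 genes were measured. At 96 hpf the DNA fragmentation factor relative cideb was 3.44-fold higher in copper and casp20 2.54-fold lower, 1 probe each, and the list median was -0.09. The DNA repair enzyme gene parp1 differed by -0.93, and caspa, an inflammatory caspase, by 0.34. At 24 hpf the executioner casp3b was 2.40-fold higher (same sign on 2 of 2 probes). The mitochondrial initiator casp9 was 2.08-fold lower (1 probe), and the list median was -0.22. The initiator casp2 differed by -0.76 at that age on 4 of 4 probes and parp1 by 0.83.

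The 9 measured genes of death receptors, their ligands and adaptors were mostly below 0 at both ages, 8 at each. None was past 2-fold at 96 hpf, where the median was -0.13 beside -0.05 for all genes. Of all genes at 96 hpf, 61.9% had a lower difference than phlda3 (0.06). At 24 hpf the median was -0.49 beside -0.26 for all genes, and 1 gene, the ligand tnfb, was lower by 2-fold (2.85-fold, 2 of 2 probes). At that age at least 67.6% of all genes lay below 0. The 8 below 0 include tnfa (-0.11), which was dim on the control array and whose sign did not hold under every normalization. The adaptor tradd differed by -0.53 at 24 hpf (2 of 2 probes), and the ligand tnfsf10l3 by 0.21 (1 probe). At 96 hpf tnfb differed by -0.71 (2 of 2 probes) and tnfsf10l3 by -0.28. The marker genes of neutrophils and macrophages mpx, lyz and mpeg1.1 differed by -0.02, -0.78 and -0.78 at 24 hpf, so mpx was nearly level. At 96 hpf they differed by -0.37, -0.26 and 0.12. Their summed signal (log2) was 12.63 in copper and 12.81 in control at 96 hpf, and 11.36 in copper and 12.03 in control at 24 hpf, none of the 3 was dim on any array, and their part in these values was not tested.

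Of the inhibitors of apoptosis and their antagonists 8 genes were measured. diabloa, whose product frees caspases from these inhibitors, was 2.03-fold higher in copper at 96 hpf and differed by -0.96 at 24 hpf. Its sign was the same on 3 of 3 probes each time. birc5b, a survivin gene, differed by 0.89 at 96 hpf and was 2.15-fold lower at 24 hpf (1 probe). Its paralog birc5a differed by -0.80 at 96 hpf (2 of 2 probes), and birc7 by -0.68. The chaperone regulator bag1 differed by 0.34 at 24 hpf. The list medians were 0.13 at 96 hpf and -0.55 at 24 hpf.

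**Figure D3:**
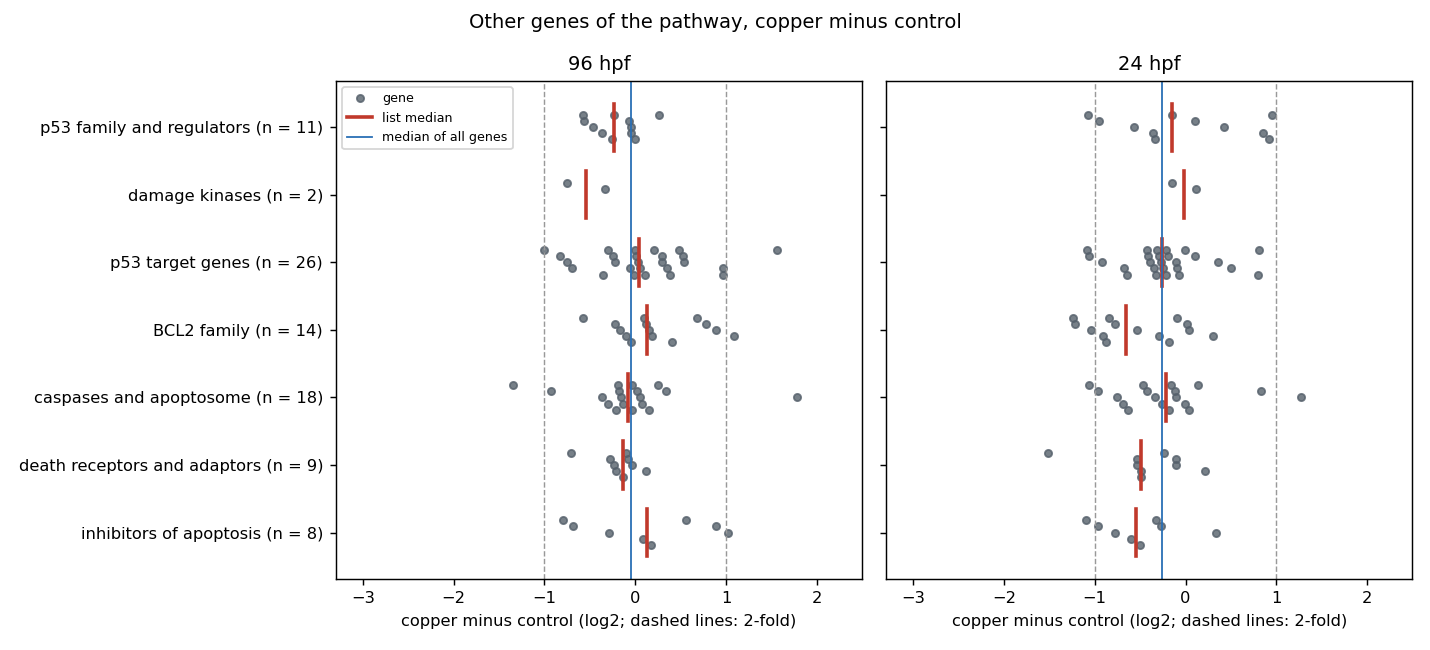
Copper minus control (log2, horizontal axis) of the measured genes of the 7 lists at 96 hpf (left) and 24 hpf (right), 1 point per gene by its brightest probe, with the list median as a bar and the median of all genes as a line. At 24 hpf the Bcl2 family bar lies at -0.66 and the line at -0.26.

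By their brightest probes, 0 of the 8 members were higher and 0 lower by 2-fold at 96 hpf, where 5.51% and 1.67% of all genes were (7.18% either way). At 24 hpf 1 was higher (casp6a) and 1 lower (bbc3), where 3.09% and 5.86% of all genes were (8.95% either way). With 8 genes, counts of 0 and 1 lie near these shares. Over probes, 0 of 16 were past 2-fold at 96 hpf, beside 7.08% of all probes (4.98% higher and 2.1% lower). At 24 hpf 3 probes were higher and 2 lower, beside 8.61% and 5.84% of all probes (14.4% either way). The member median was -0.10 at 96 hpf, beside -0.05 for all genes, and -0.44 at 24 hpf, beside -0.26. These medians rest on brightest probes. By the mean of detected probes, mdm2 (0.23), baxa (0.26) and ccng1 (0.62) lay above 0 at 24 hpf, as did casp6a (2.39). By that mean bbc3 (-1.71), gadd45aa (-0.47), casp8 (-0.72) and phlda3 (-0.66) lay below 0. Across the 7 lists, 88 genes were measured besides the members. Of these 4 were higher and 2 lower by 2-fold at 96 hpf, and 1 was higher and 9 lower at 24 hpf. At 24 hpf, 75th-percentile scaling gave 4 higher and 5 lower, and normexp 1 and 5.

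Probes of 1 gene can be set against each other. Of the 6 members with several probes, each measured on every array, 0 had probes of opposite sign at 96 hpf, and 3 (mdm2, baxa and ccng1) did at 24 hpf. Over 6289 genes with such probes the shares were 23.5% and 50.2%, so the members' share at 24 hpf was that of genes in general. The difference between the ages was not tested. At 24 hpf the dimmest probe exceeded the brightest by 1.29 for ccng1, 0.99 for baxa, 0.70 for mdm2 and 0.35 for gadd45aa, and by 0.01 and -0.05 for casp8 and bbc3. At 96 hpf the same gaps lay between -0.22 and 0.14. The 3 genes with mixed signs are the ones whose probes differ most in brightness. The part of brightness in these gaps was not tested. A single-probe value at 24 hpf, such as that of casp6a or phlda3, has no second probe to set beside it.

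The age comparison asks how the members differed between larvae at 96 hpf and embryos at 24 hpf, each age having a copper and a control array. A limma fit with terms for age and copper used all 4 arrays and was adjusted over all 36026 compared probes. It leaves 1 degree of freedom for the spread, which is the change of the copper difference between the ages and not a spread between replicates. That spread was moderated over all compared probes, so each SE and call rests in part on other probes. Of the 16 member probes 2 were called higher and 1 lower at 96 hpf, where 14.9% and 15.7% of all probes were. Both higher calls were gadd45aa, which rose by 1.54 (log2, SE 0.47, limma adjusted p = 0.0302) and 1.57 (SE 0.46, adjusted p = 0.027). Its age differences were 2.28 and 2.20 between the copper arrays and 0.81 and 0.94 between the control arrays. The brighter probe was not called with no filter (limma adjusted p = 0.0955) or without the variance trend (limma adjusted p = 0.0634). With age alone in the fit it had 1.13 without the 96 hpf copper array and 1.22 without the 24 hpf copper array. In such a fit 1 age is a control array alone, so the age difference carries copper too. casp6a fell by 2.25 (SE 0.71, adjusted p = 0.0363), a call lost under 75th-percentile scaling (-1.93, adjusted p = 0.119), with no filter (adjusted p = 0.148), without the variance trend (adjusted p = 0.0693) and with age alone in the fit (adjusted p = 0.0527). Under normexp its age difference was -1.04 (adjusted p = 0.0489). These fits use the value of the dim copper array at 96 hpf as it was measured. Between the copper arrays casp6a was at least 9.53-fold lower at 96 hpf in quantile-normalized values, with the dim array set to the dimmest value counted as above background there. This bound was not computed under the other normalizations and does not carry over to normexp. There the copper differences were 1.43 at 24 hpf and -0.20 at 96 hpf, and the fall between the copper arrays was smaller than the bound. Between the control arrays the difference of casp6a was -0.69. Without the copper array at 24 hpf the fitted difference of casp6a was -1.06, with age alone in the fit.

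The other members were not called with age. bbc3 had a fitted difference of 1.36 (SE 0.53, adjusted p = 0.0757), made up of 2.41 between the copper arrays and 0.30 between the control arrays. phlda3 had 0.96 (SE 0.41, adjusted p = 0.101). With 1 control array left out and age alone in the fit, 1 age is a copper array alone, so the age difference carries copper too. bbc3 then had 1.57 without the control array of 96 hpf and 2.2 without that of 24 hpf. phlda3 had 0.99 and 1.29 in the same fits. baxa had -0.42 and -0.99, mdm2 -0.19 and -0.73, casp8 0.10 and -0.23 and ccng1 0.12 to 0.39 over its probes. The median of the 8 members was 0.15 and that of all genes -0.10.

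**Figure D4:**
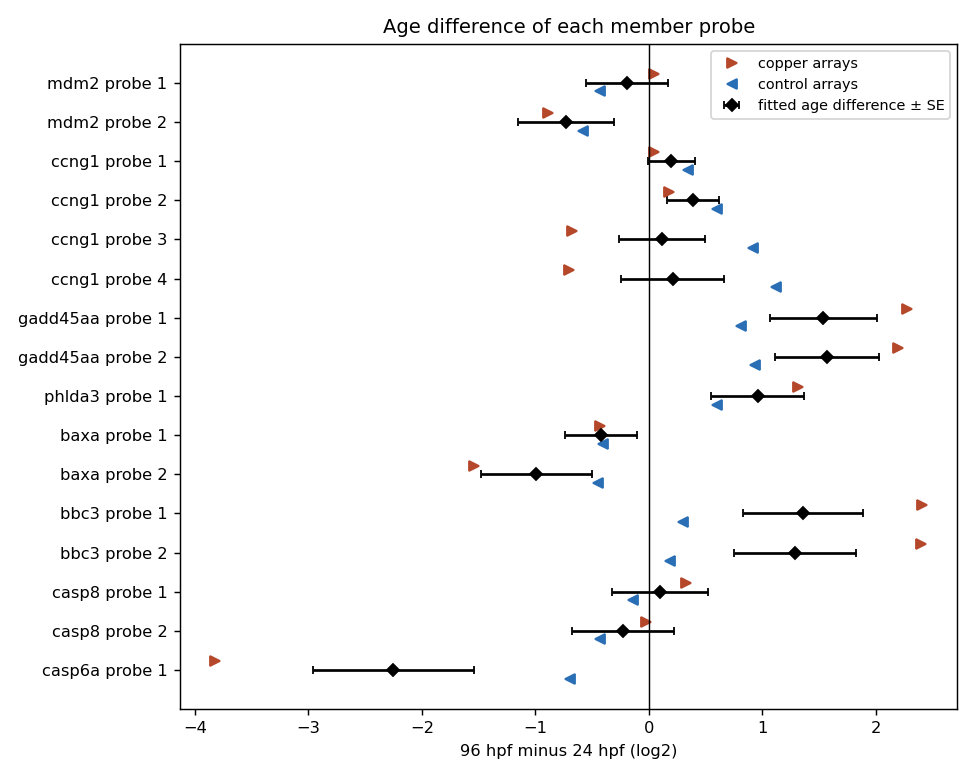
Age difference, 96 hpf minus 24 hpf (log2, horizontal axis), of the 16 member probes. Diamonds with bars are the fitted difference ± SE over the 4 arrays and triangles the differences between the copper arrays and between the control arrays; gadd45aa lies right of 0 on both, while for casp6a and bbc3 the copper arrays differ far more than the control arrays. The copper triangle of casp6a uses a value that was not well above background at 96 hpf.

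With age 9 of the 88 other pathway genes rose and 12 fell, where 17.3% and 15.1% of all genes did. The nucleolin gene ncl fell by 1.52 on its brightest probe (limma adjusted p = 0.00586), though its age sign did not hold on every probe under all 3 normalizations. That probe read 13.53 in copper and 13.90 in control at 96 hpf, and 15.71 in copper and 14.76 in control at 24 hpf. The checkpoint kinase gene chek1 fell by 2.76 (limma adjusted p = 0.00142) and chek2 fell by 1.31. The repair enzyme gene parp1 fell by 2.19 and the survivin gene birc5a fell by 1.71. Their copper differences at 96 hpf given above (-0.75 for chek1, -0.93 for parp1 and -0.80 for birc5a) had the sign of these age differences, as did those of gadd45ba (1.56) and diabloa (1.02), and the stage markers differed the same way between those arrays. The part of stage was not tested. The cycling-cell markers were lower at 96 hpf too (3 of 3). Their summed signal (log2) was 13.51 in copper and 14.46 in control at 96 hpf, and 16.24 in copper and 15.90 in control at 24 hpf, and their part in these falls was not tested. The target list had 4 genes that rose and 4 that fell. tigara rose by 3.15 and gadd45ba by 1.55, while cdkn1ca fell by 1.82 and gadd45gb.1 fell by 1.78. In the caspase list 3 genes rose and 2 fell. The inflammatory caspb and caspa rose, caspb by 3.27 (limma adjusted p = 6.36e-05), and casp20 fell by 1.35 beside parp1. The neutrophil and macrophage markers were higher at 96 hpf in 3 of 3, by 0.63 to 1.65, and their part in the caspa and caspb values was not tested. The hematopoietic death receptor gene hdr fell by 1.53, the only call in its list. diabloa rose by 2.05 and birc7, an inhibitor of caspases, by 2.58. No Bcl2 family gene was called, and the smallest adjusted p in that list was 0.0508, for bik.

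A copper change shared by both ages was not detected for any member. In the same limma fit 0 of 16 member probes were called for copper, 0 had an unadjusted p under 0.05 and the smallest unadjusted p was 0.255, for bbc3. Over all probes 0.0% were called, with 710 at an unadjusted p under 0.05. The fit judges a shared copper change against how far the ages differ in it, so opposite signs at the ages, as for bbc3, gadd45aa and casp6a, widen its error.

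The genes most like mdm2 over the 4 arrays, by the Euclidean distance of values centred per gene among 11427 genes well above background on all arrays, were rmnd5b, zgc:174623 and atp6v0e1, each at a distance of 0.05. casp6a itself was dim on 1 array, so its distances rest in part on a value not above background. The genes nearest to it were srp68, a subunit of the signal recognition particle (distance 0.27), calr3b, a calreticulin of the endoplasmic reticulum (0.34), and ppp2r5eb, a phosphatase subunit (0.45). srp68 read 4.76 in copper and 5.37 in control at 96 hpf, and 8.65 in copper and 6.44 in control at 24 hpf. With 4 arrays, many genes lie close to any one profile.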

How the data were processed

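RNA of whole zebrafish embryos was measured on 4 one-colour Agilent arrays. Per the file headers, the scanner files give the intensity of each spot from Feature Extraction 11.0.1.1, background-subtracted and not normalized between arrays, on a design of build Zv9; no spot was saturated. Per the series' design text, the authors quantile-normalized in GeneSpring GX 11.5.1 and chose genes by fold change. A table the authors deposited holds log2 fold changes of listed probes and Zv9 coordinates. Its 16 other columns of array values were not used.

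Here control spots and outlier-flagged spots were left out (34 of 43603 probes), log2 processed intensity was averaged per probe and quantile-normalized, and probes well above background on at least 2 arrays (36026) were compared. Genes were named by RefSeq accession through a table of assembly GRCz12tu; the detected probe with the highest mean represents a gene. Age and copper were fitted with limma 3.58.1 (R 4.3.3, eBayes with trend, Benjamini-Hochberg, threshold 0.05). The age estimate was tried on simulated data with known age changes and equal noise for all probes, which tests neither the copper term nor the error rate in these data. Nothing says that arrays came from separate pools of embryos, so differences between arrays may be technical. In the fit of age and copper, the spread behind a p-value is how far the copper difference changes between the ages, moderated over all compared probes. It is no spread between replicates.

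Members and lists were chosen with earlier results of these data known. From each list, up to 2 genes each way were named, per age and for the age fit, where 3 normalizations and all detected probes had the same sign; some of these genes are not reported here. Alternatives were 75th-percentile scaling, normexp (offset 50, median spot and background intensity), other filters on dim probes, the mean of a gene's probes, 1.5-fold, file-name treatments, eBayes without trend and age alone. Python 3.11.15, pandas 2.3.3 and numpy 2.4.6 were used.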

Additional observations from a re-analysis of the deposited data

Results flagged for a closer look

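Of the members, 5 differed in opposite directions at the 2 ages by their brightest probes, and the difference between the ages was not tested. Of all genes measured at both ages, 53.3% did so, so the count is no mark of these members. bbc3 differed by 0.42 at 96 hpf and by -1.69 at 24 hpf (log2, copper minus control). gadd45aa differed by 0.82 at 96 hpf and by -0.65 at 24 hpf. casp6a differed by 2.39 at 24 hpf. At 96 hpf its copper array was not well above background: the measured values differ by -0.74, and the bound is -0.17. phlda3 differed by 0.06 at 96 hpf, and by 0.00 under normexp, and by -0.66 at 24 hpf. mdm2 differed by 0.36 at 96 hpf and by -0.12 at 24 hpf, which is above the median gene, and with the other sign at 24 hpf on its dimmer probe.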

How the results depend on the processing

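No paired analysis was possible because each group has 1 array and replicate number 1, so a replicate block would hold all arrays; age and copper were both terms of the fit instead. With the treatment as file names give it, bbc3 differed by 1.69 and casp6a by -2.39 at 24 hpf. The count of members higher by 2-fold at 24 hpf was 1, and 0 with detection on all 4 arrays, which removes casp6a. At 1.5-fold 4 members were lower at 24 hpf and 1 was higher at 96 hpf. Of all genes, 19.9% had a lower difference than gadd45aa (-0.65) at 24 hpf, so a count at 1.5-fold is no mark of these members. At 96 hpf 92.5% had a lower difference than gadd45aa (0.82). The 1 member called higher with age (gadd45aa) became 0 without a filter and by eBayes without trend. The 1 called lower (casp6a) became 0 under 75th-percentile scaling, detection on all 4 arrays, no filter, eBayes without trend and age alone. When 1 array was left out, with age alone in the fit, the brighter gadd45aa probe ranged from 1.13 to 1.95 and casp6a from -1.06 to -3.45. In such a fit 1 age is a single array, so its age difference carries copper too. These leave-one-array fits were chosen after seeing the data.

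Of the other pathway genes, those higher by 2-fold at 24 hpf numbered 1, and 4 under 75th-percentile scaling, 3 by the mean of detected probes, 7 at 1.5-fold and 9 by file names. Those lower at 24 hpf numbered 9, and 5 under 75th-percentile scaling, 5 under normexp, 24 at 1.5-fold and 1 by file names. At 96 hpf 4 were higher, and 10 at 1.5-fold and 2 by file names; 2 were lower, and 1 under 75th-percentile scaling, 1 under normexp, 10 at 1.5-fold and 4 by file names. With age 9 rose, and 4 without a filter and 4 to 14 when 1 array was left out. The 12 that fell became 6 without a filter and 7 to 13 when 1 array was left out. Shares of all genes at 1.5-fold and under the other settings are not given here, so these counts have no comparison beside them. The cause of these shifts was not tested. Dim probes limit casp6a, and single probes limit phlda3.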
